A study of Mus musculus with 4 samples.

Results

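Epithelial-mesenchymal transition (EMT) is the switch by which epithelial cells lose their junctions and gain a migratory, mesenchymal state. It is driven by transcription factors of the SNAI, ZEB, TWIST and PRRX families and opposed by factors that keep the epithelial program running. Here 7 EMT factors (Snai1, Snai2, Zeb1, Zeb2, Twist1, Twist2 and Prrx1) and 3 epithelial regulators (the splicing regulators Esrp1 and Esrp2 and the transcription factor Grhl2) were followed in mouse pancreatic cancer cell lines. They were chosen by name, with earlier results of these data known, and are 10 of the 19938 genes with a symbol of their own on the array. Each was measured by 1 transcript cluster, the group of probes that the array summarises for a gene.

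RNA came from 4 untreated lines, each hybridised to 1 Affymetrix Mouse Gene ST array. The lines TPC18645 and TPC20223 are from TPC mice, labelled Ela-TGFa; Ptg1a+/CRE; Trp53fl/fl, and the lines K459 and TCPA18654 are from TPAC mice, which carry p65fl/fl in addition. Both groups therefore share the TGF-α transgene, which the elastase promoter directs to the pancreas, the Cre driver and the floxed p53 gene, and they differ in the loss of RelA/p65, a subunit of NF-κB. In the study's text the driver is called p48-Cre, which is used to direct deletion to the pancreas. Pancreatic tumours were minced, digested, filtered and grown in culture, so other cells of the tumour could have been carried along. The sources used here give neither the age of the mice nor whether each line had a mouse of its own, so p-values reflect only how far these lines spread.

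The deposited values are log2 signals made by RMA, so that a difference of 1 stands for a 2-fold difference. Array medians over all clusters lay between 7.19 and 7.26. RMA sets the arrays to a common distribution and so hides any difference in total RNA, and the number of arrays limits the precision. There is no detection call. A gene is called dim where its mean signal is not above the 40th percentile of all genes, and differences of dim genes are inexact in size.

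Of the marker genes of pancreatic ductal cancer cells, 8 of 8 were measured, and their summed log2 signal was 84.08 (TPC18645), 54.36 (TPC20223), 95.00 (K459) and 86.08 (TCPA18654). The list was lowest in TPC20223 and highest in K459. Krt18, a cytokeratin, read 6.50 in TPC20223 against 12.92 to 13.30 in the other 3 lines. Cdh1, which encodes E-cadherin, read 6.96 in TPC20223 against 12.57 to 12.68. Of the 8 markers, 6 were at least 2-fold lower in TPC20223 than in each other line, which held for 2.95% of all genes. Epcam (6.82, 6.43, 9.77 and 7.37 in the order above) and Cldn4 (7.12, 6.93, 9.19 and 7.25) were not, and were high in K459 alone. Most ductal markers of the list were thus low in TPC20223, which has the same cell type label (pancreatic tumor cells) as the other lines. The TPAC against TPC differences below are therefore also given without it. Markers of leukocytes (7 measured, 6 dim), endothelial cells (6 measured, 5 dim), Schwann cells (4 measured, 2 dim) and acinar cells (4 measured, 3 dim) had sums that spanned 43.11 to 44.93, 36.54 to 38.68, 26.90 to 27.27 and 26.51 to 27.92. The leukocyte marker Ptprc was dim, at 5.61 to 6.02, and so was the endothelial marker Pecam1, at 5.97 to 6.10. Other dim markers varied more. The endothelial markers Tek and Kdr read 7.15 and 7.02 in TPC20223, against 5.80 to 5.85 and 6.13 to 6.20 in the other 3 lines. Lyz2, a leukocyte marker, read 5.46 (TPC18645), 6.48 (TPC20223), 6.91 (K459) and 5.83 (TCPA18654). The acinar marker Cpa1 read 7.50 in TPC18645 against 6.25 to 6.78. Cd68, a macrophage marker and the only leukocyte marker above the 40th percentile, read 8.60 (TPC18645), 6.66 (TPC20223), 7.66 (K459) and 8.60 (TCPA18654), so that it was lowest in TPC20223. Of the other markers above that percentile, Vwf read 7.04 to 7.40, Ngfr 7.43 to 7.63, Sox10 6.90 to 7.09 and Cela1 7.37 to 7.77. The part of such cells in the signals described here was not tested.

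All 7 EMT factors had their highest signal in TPC20223. Snai2, Prrx1, Twist1 and Snai1 stood furthest above the lowest line, by 3.81-, 4.44-, 5.43- and 2.55-fold, whereas Zeb1 and Zeb2 varied by a log2 range of 0.52 and 0.57 only. Over all genes, 28.1% had their highest signal in this line by any amount. With 1 array per line this order carries no test, and in a culture of mixed cells fewer cells of a type and less RNA per cell cannot be told apart. Esrp2 showed the opposite pattern and was lowest in TPC20223, and Esrp1 and Grhl2 were dim.

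**Figure D1:**
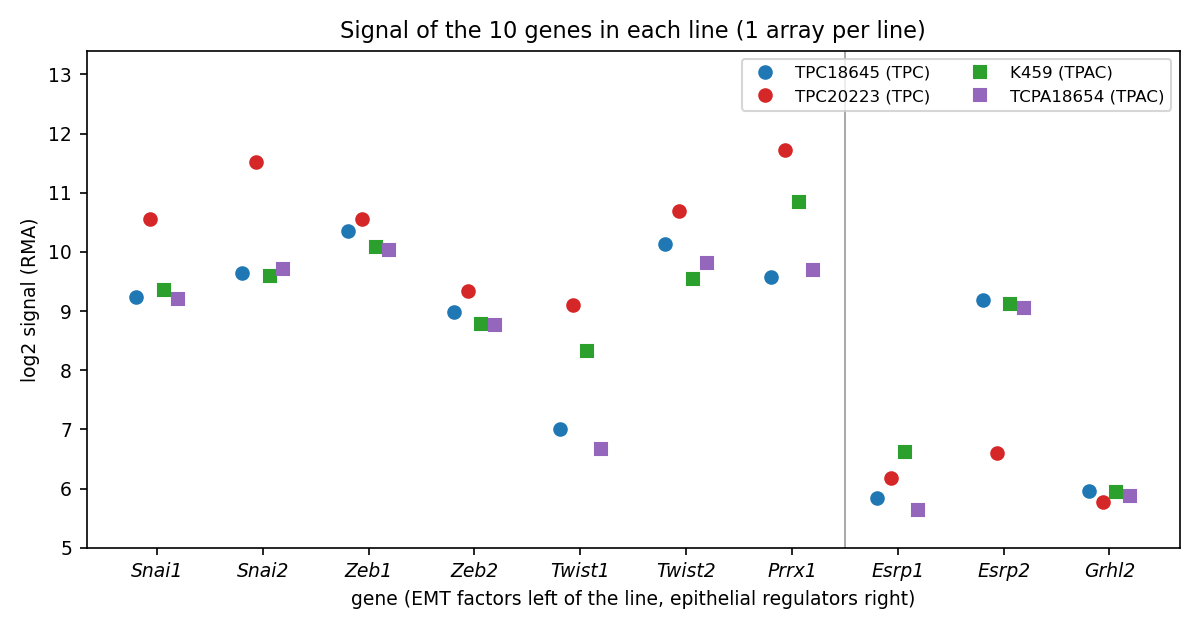
Log2 signal (vertical axis, RMA) of the 10 genes (horizontal axis) in the 4 lines; each point is 1 array, circles are TPC and squares TPAC lines. TPC20223 is the highest point for each of the 7 EMT factors left of the vertical line, and Esrp2 reads 6.60 in this line against 9.06 to 9.18 in the others.

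Snai1 and Snai2, known as Snail and Slug, are zinc-finger repressors that bind E-box motifs in the promoters of epithelial genes such as Cdh1. Snai1 had log2 signals of 9.24 (TPC18645), 10.56 (TPC20223), 9.36 (K459) and 9.21 (TCPA18654). It was high in TPC20223 alone, with the other 3 lines within 0.15 of each other. Snai2 had log2 signals of 9.64 (TPC18645), 11.52 (TPC20223), 9.59 (K459) and 9.72 (TCPA18654), and again TPC20223 stood alone. These were the only 2 of the 10 genes at least 2-fold higher in TPC20223 than in each of the other lines, a pattern that 4.25% of all genes had.

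The promoter of Snai1 is shown in place of those of Esrp1, Esrp2 and Grhl2, which were planned but had no window used here. Snai1 was highest in TPC20223, as were all the EMT factors studied, and Snail proteins are known to bind the E-box CACCTG. The window holds the 250 bases before the start of the gene, from RefSeq (build GRCm38.p6, chr2:167537945-167538194, plus strand), and capitals mark CACCTG or its reverse complement CAGGTG.
Snai1 promoter: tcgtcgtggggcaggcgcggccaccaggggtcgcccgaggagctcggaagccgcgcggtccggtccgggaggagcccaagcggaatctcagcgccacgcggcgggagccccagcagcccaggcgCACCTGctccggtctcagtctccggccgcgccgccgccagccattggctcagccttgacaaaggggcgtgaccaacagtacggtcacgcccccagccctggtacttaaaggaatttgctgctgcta
It holds 1 such match, 126 to 121 bases upstream of the start, read on the plus strand. Windows of this length with CACCTG on either strand are common: 5657 of 32851 in the RefSeq table, or 17.2%. A match of letters is a description and not a site of binding.

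Twist1 and Twist2 encode basic helix-loop-helix factors of mesoderm development that also bind E-boxes. Twist1 had log2 signals of 7.01 (TPC18645), 9.11 (TPC20223), 8.32 (K459) and 6.67 (TCPA18654). It was thus high in 1 line of each genotype and low in the other line of each. Twist2 had log2 signals of 10.13 (TPC18645), 10.69 (TPC20223), 9.55 (K459) and 9.82 (TCPA18654). Its order differed from that of Twist1, since K459 was its lowest line.

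Prrx1, a paired-related homeobox factor of limb and craniofacial mesenchyme, had the same first and second line as Twist1. Its log2 signal was 9.58 (TPC18645), 11.73 (TPC20223), 10.84 (K459) and 9.70 (TCPA18654). TPC20223 and K459 were its higher lines, and TPC18645 and TCPA18654 differed by less than the gap to either. In each of the 6 pairs of lines, Twist1 and Prrx1 differed in the same direction except between TPC18645 and TCPA18654, where Twist1 was 0.34 lower and Prrx1 0.12 higher in the latter.

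The promoter windows of Twist1 (GRCm38.p6, chr12:33957421-33957670, plus strand) and Prrx1 (GRCm38.p6, chr1:163313651-163313900, minus strand) are, like that of Snai1, given in place of the planned ones.
Twist1 promoter: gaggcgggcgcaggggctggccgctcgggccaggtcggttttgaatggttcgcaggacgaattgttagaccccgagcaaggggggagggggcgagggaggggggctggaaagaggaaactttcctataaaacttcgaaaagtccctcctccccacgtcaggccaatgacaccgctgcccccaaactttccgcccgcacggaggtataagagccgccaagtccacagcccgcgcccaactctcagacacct
Prrx1 promoter: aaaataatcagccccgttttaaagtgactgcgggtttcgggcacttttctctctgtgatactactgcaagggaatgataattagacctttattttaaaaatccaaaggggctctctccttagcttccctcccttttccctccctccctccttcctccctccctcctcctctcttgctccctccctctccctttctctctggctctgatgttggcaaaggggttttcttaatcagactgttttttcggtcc
Neither holds CACCTG in these 250 bases. The same search covered Twist2 and 4 windows of Zeb2 and found no match. A search for AACCGGTT, the core bound by grainyhead-like factors such as Grhl2, found none in the 8 windows of these 5 genes, against 38 of 32851 windows in the table (0.116%). The table gave no window used for Snai2, Esrp1, Esrp2 and Grhl2, and Zeb1 was left out of the search.

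Zeb1 and Zeb2 are zinc-finger homeobox repressors that silence Cdh1 and the splicing regulator Esrp1. Zeb1 had log2 signals of 10.35 (TPC18645), 10.55 (TPC20223), 10.09 (K459) and 10.03 (TCPA18654). Zeb2 had log2 signals of 8.99 (TPC18645), 9.34 (TPC20223), 8.79 (K459) and 8.77 (TCPA18654). For both genes the 2 TPC lines lay above the 2 TPAC lines. Neither was dim, as their mean signals stood at percentiles 86.3 and 68.7 of all genes. Each of them thus varied by 0.57 or less between the lines with high and with low Cdh1.

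The miR-200 family is known to repress Zeb1 and Zeb2 through sites that pair with its seed, bases 2 to 8 of the mature microRNA. The mature strands of the 4 members that were measured are shown, from RefSeq (GRCm38.p6, minus strand), with the seed in capitals, because the seed splits the family into 2 groups.
miR-141-3p: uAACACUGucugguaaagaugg
miR-200a-3p: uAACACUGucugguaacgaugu
miR-200b-3p: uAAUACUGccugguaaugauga
miR-200c-3p: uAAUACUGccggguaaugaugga
They lie at chr6:124717917-124717938, chr4:156054911-156054932, chr4:156055685-156055706 and chr6:124718324-124718346. miR-141 and miR-200a share the seed AACACUG, and miR-200b and miR-200c share AAUACUG. The array clusters read the precursor and not the mature strand. All 9 measured microRNA precursors linked to ZEB and SNAI1, including those of miR-34, miR-203 and miR-205, were dim, and none differed 2-fold in any pair of lines. Mir200a read 6.73 (TPC18645), 7.01 (TPC20223), 6.93 (K459) and 7.05 (TCPA18654), and Mir200c read 5.76, 5.70, 5.45 and 5.83 in the same order.

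Esrp1 and Esrp2 are RNA-binding proteins that set the epithelial form of exons in genes such as Fgfr2, Cd44 and Ctnnd1. Esrp2 had log2 signals of 9.18 (TPC18645), 6.60 (TPC20223), 9.12 (K459) and 9.06 (TCPA18654). The range of 2.58, or 5.98-fold, was the largest of the 10 genes, and it came from TPC20223, since the other 3 lines lay within 0.12. Esrp2 was at least 2-fold lower in TPC20223 than in each other line, which held for 2.95% of all genes. Esrp1 had log2 signals of 5.84 (TPC18645), 6.18 (TPC20223), 6.62 (K459) and 5.64 (TCPA18654). It was dim, its highest line was K459, and its signal in TPC20223 was above those in TPC18645 and TCPA18654, unlike that of Esrp2.

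Grhl2, a grainyhead-like factor that activates Cdh1 and other junction genes and opposes Zeb1, had log2 signals of 5.96 (TPC18645), 5.77 (TPC20223), 5.95 (K459) and 5.87 (TCPA18654). These values were dim and spanned 0.19, the smallest range of the 10 genes. Cdh1 spanned 5.72 over the same lines. The related Grhl1 and Grhl3 read 6.58 to 6.71 and 6.54 to 7.42, and Ovol1 and Ovol2, zinc-finger factors that also restrain Zeb1, read 5.78 to 6.29 and 6.66 to 6.97.

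The pairs of lines were then compared by the number of the 10 genes that differed at least 2-fold. Between the TPC lines TPC18645 and TPC20223, 5 did (Snai1, Snai2, Twist1, Prrx1 and Esrp2), against 11.3% of all genes. The same 5 did so between TPC20223 and TCPA18654, against 10.9%. Between TPC20223 and K459 it was 4 (Snai1, Snai2, Twist2 and Esrp2), against 10.9%. Twist1 and Prrx1 were past 2-fold between K459 and TPC18645, against 4.34% of all genes, and between the TPAC lines K459 and TCPA18654, against 3.87%.

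TPC18645 and TCPA18654, a TPC and a TPAC line, were the closest pair for these genes. None of the 10 differed 2-fold between them, against 0.271% of all genes, and the largest difference was 0.34, that of Twist1. The 95th percentile of the difference over all genes in this pair was 0.41. K459 had none of the 10 genes at least 2-fold above or below each other line, against 0.988% and 0.331% of all genes. These pairs hold 1 array a side and were not tested. Since the comparisons share lines, the counts are not independent of each other.

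**Figure D2:**
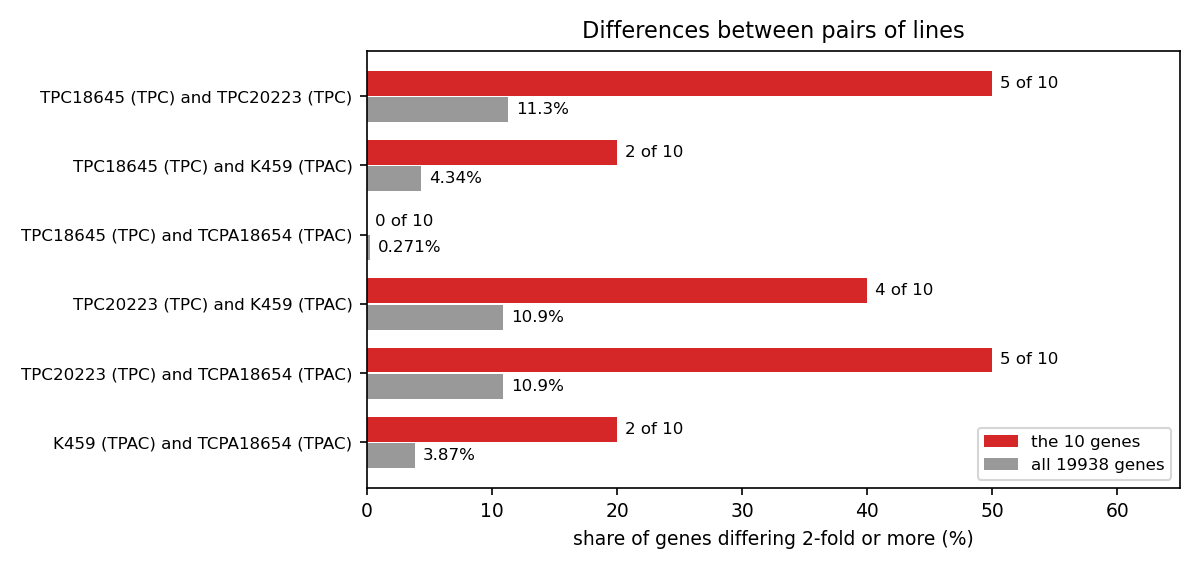
Share of genes (horizontal axis, percent) with a log2 difference of at least 1 in each of the 6 pairs of lines (vertical axis), for the 10 genes (red, with counts) and for all 19938 genes (grey). The 3 pairs with TPC20223 hold 4 or 5 of the 10 genes, and TPC18645 with TCPA18654 holds 0.

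The design sets TPAC against TPC lines and so asks what the loss of RelA/p65 adds to TGF-α and p53 loss. The mean of the 2 TPAC lines was below that of the 2 TPC lines for 7 of 7 EMT factors, where 46.7% of all genes had this direction by any amount, and it was above for Esrp1, Esrp2 and Grhl2. None of the 10 passed limma at the thresholds used (adjusted p 0.05, log2 difference 0.58 in size), and neither did any other gene (0% of 19938). With an unadjusted p below 0.05 in place of the adjusted one, 38 genes were higher and 46 lower in TPAC, none of them among the 10, and the methods' t test also called 0 genes after adjustment. Labels can be assigned in only 6 ways to 2 and 2 lines, and the smallest two-sided p of an exact permutation test is then 0.33.

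Snai2 had the largest difference of the EMT factors, with TPC lines at 10.58 ± 1.33 (SD, n = 2) and TPAC lines at 9.66 ± 0.09 (SD, n = 2), a difference on the log2 scale of -0.93 (SE 0.70; limma, adjusted p = 0.989). The SD of the TPC lines exceeded this difference. Snai1 differed by -0.62 with a standard error of 0.50 (adjusted p = 0.989), Twist1 by -0.57 with a standard error of 0.98 (adjusted p = 0.989) and Prrx1 by -0.39 with a standard error of 0.90 (adjusted p = 0.989), in limma's test. All 4 genes had TPC and TPAC lines that overlapped.

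In Zeb1, Zeb2 and Twist2 both TPAC lines lay below both TPC lines, which held for 13.3% of all genes. The TPC lines had 10.45 ± 0.14 (SD, n = 2) and the TPAC lines 10.06 ± 0.04 (SD, n = 2) for Zeb1, a difference of -0.39 with a standard error of 0.14. For Twist2 they had 10.41 ± 0.40 (SD, n = 2) and 9.69 ± 0.19 (SD, n = 2), a difference of -0.73 with a standard error of 0.26. Zeb2 differed by -0.39 with a standard error of 0.18. None passed limma's test (adjusted p = 0.989 for each). None of the 10 genes had both TPAC lines above both TPC lines, against 13.7% of all genes.

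Esrp2 averaged 7.89 ± 1.82 (SD, n = 2) over the TPC lines and 9.09 ± 0.04 (SD, n = 2) over the TPAC lines, a difference of 1.20 with a standard error of 0.95 (limma, adjusted p = 0.989). Esrp1 differed by 0.12 with a standard error of 0.40 (adjusted p = 0.991) and Grhl2 by 0.05 with a standard error of 0.14 (adjusted p = 0.99) in the same fit. The median difference was -0.57 over the 7 EMT factors and 0.12 over the 3 epithelial regulators, beside 0.02 over all genes.

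These directions turned on single lines. Without TPC20223, the difference was 0.05 for Snai1, 0.02 for Snai2, 0.49 for Twist1, 0.69 for Prrx1, -0.09 for Esrp2 and -0.05 for Grhl2, so that each changed sign. Zeb1 (-0.29), Zeb2 (-0.21) and Twist2 (-0.45) kept theirs, at a smaller size, so that TPAC was below TPC for 3 of the 7 EMT factors in place of 7. Esrp1 turned to -0.37 without K459 and to -0.05 without TPC18645. Without TCPA18654, Twist1 (0.26) and Prrx1 (0.19) were also higher in TPAC. Leaving out TPC18645 instead widened the gaps, to -1.87 for Snai2 and 2.49 for Esrp2. In that setting the Esrp2 difference had an adjusted p of 0.0951 in limma, where 1 TPC array is assumed to vary like the TPAC lines, and over all 10 alternatives its adjusted p ran from 0.0951 to 0.998.

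**Figure D3:**
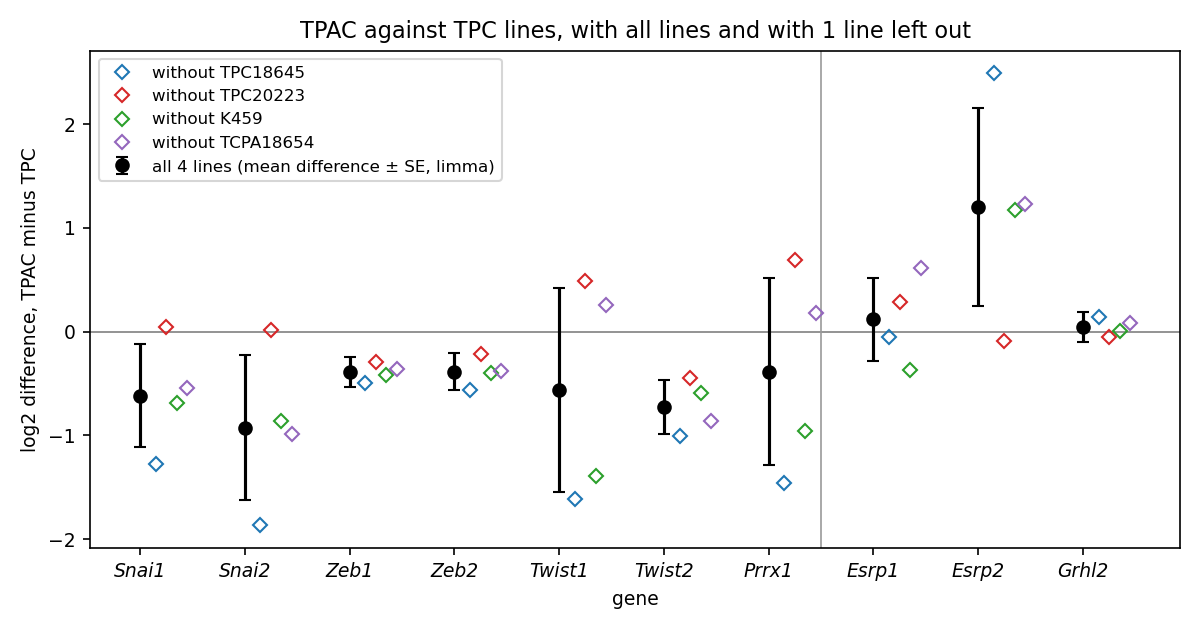
Log2 difference TPAC minus TPC (vertical axis) of the 10 genes (horizontal axis); black points with bars are the difference ± SE of limma with all 4 lines, open diamonds the difference with 1 line left out. Without TPC20223 (red) Snai1 and Snai2 lie at 0.05 and 0.02, and Zeb1, Zeb2 and Twist2 stay below 0 in every setting.

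Other EMT and mesenchymal factors were also most often highest in TPC20223, for 19 of 30 measured (5 dim). In this line 9 were at least 2-fold above each other line and 1 at least 2-fold below, beside the 4.25% and 2.95% of all genes given above. TPAC was higher for 8 and lower for 22, with a median difference of -0.30 and 0 called by limma. Without TPC20223 it was higher for 18 and lower for 12, with a median of 0.04. Foxf1, a forkhead factor of gut mesenchyme, read 6.99 (TPC18645), 11.41 (TPC20223), 7.17 (K459) and 6.91 (TCPA18654). Id4, an inhibitor of helix-loop-helix factors, read 9.21 in TPC20223 against 6.65 to 7.13 in the lines TPC18645, K459 and TCPA18654. Sox11 (6.40, 9.82, 9.02 and 6.32) and the ETS factor Etv1 (7.31, 9.39, 9.38 and 6.33) were high in TPC20223 and K459, the higher lines of Twist1 and Prrx1.

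Among epithelial factors other than Grhl2, 20 were measured (6 dim). In TPC20223, 6 of them were at least 2-fold below each other line (2.95% of all genes). In K459, 3 were at least 2-fold above each other line (0.988% of all genes). TPAC was higher for 16 and lower for 4, with a median difference of 0.27 and 0 called, and without TPC20223 higher for 14 and lower for 6 (median 0.10). Hnf4a, a nuclear receptor of foregut epithelium, read 10.99 (TPC18645), 7.35 (TPC20223), 11.84 (K459) and 10.93 (TCPA18654). The ETS factors Elf3 (9.87, 6.47, 10.81 and 9.51) and Ehf (7.92, 6.56, 10.73 and 8.23) had the same highest and lowest lines. Tfap2a went another way, with 9.45 in TPC20223 and 8.74 in K459 against 6.89 in TPC18645 and 6.29 in TCPA18654.

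The epithelial genes known to be repressed in EMT had their lowest median in TPC20223. Of 30 measured (4 dim), 12 were at least 2-fold below each other line in TPC20223 (2.95% of all genes), and none was highest there. In K459, 10 were at least 2-fold above each other line (0.988% of all genes). Centred on each gene's mean, the list's median was 0.05 (TPC18645), -1.07 (TPC20223), 1.06 (K459) and 0.06 (TCPA18654), against -0.35, 0.97, -0.18 and -0.38 for the 7 EMT factors. The keratins Krt19 (11.74, 6.08, 12.65 and 11.79 in the order above) and Krt8 (13.33, 7.87, 13.72 and 13.44) were low in TPC20223 alone. Mal2, a raft protein of epithelial transport, was high in K459 alone, at 12.55 against 6.42 to 7.57 in the other 3 lines. Thus K459 held the second-highest Twist1 and Prrx1 signals together with the highest signal of 23 of the 30 epithelial genes. Of all 19938 genes, 4508 were highest in K459. TPAC was higher for 29 of the 30 and lower for 1, with a median of 1.10 and 0 called. With TPC20223 left out, these counts were 23 and 7 and the median was 0.32.

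Among mesenchymal genes, 22 were measured (1 dim). Of these, 18 were highest in TPC20223 (28.1% of all genes) and 10 at least 2-fold above each other line there (4.25%). TPAC was higher for 2 and lower for 20, with a median of -0.55 and 0 called by limma. Leaving out TPC20223 gave 11 higher and 10 lower, with a median of 0.05. Tenascin C (Tnc) read 5.53 (TPC18645), 12.71 (TPC20223), 8.38 (K459) and 5.72 (TCPA18654), and the matrix gene Postn read 5.99, 11.71, 8.55 and 5.15. Lox, a collagen cross-linking enzyme, was high in both TPC20223 (12.87) and K459 (11.85), against 6.20 in TPC18645 and 6.43 in TCPA18654. Cdh11, a mesenchymal cadherin, was high in TPC20223 alone (12.50 against 6.45 to 6.94). Vim and Fn1, chosen after their values were seen, spanned little over the lines, at 13.79 to 13.91 and 13.44 to 13.77. Chosen likewise, Cdh2, another cadherin, was lowest in TPC20223, at 10.95 against 11.41 to 11.97 in the other lines. Axl was not highest there either, at 11.69 against 11.59 to 12.13.

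The marker list of fibroblasts and stellate cells, 12 of 12 measured and 3 dim, was highest in the same line as the EMT factors. Its summed log2 signal was 99.37 (TPC18645), 112.81 (TPC20223), 98.98 (K459) and 97.45 (TCPA18654). TPC20223 was highest for 8 of the 12 (28.1% of all genes) and at least 2-fold above each other line for 4 (4.25%). Col1a1 read 13.02 there against 8.53 to 10.36, and Pdgfra read 10.32 against 7.72 to 8.32. Pdpn (11.62 against 7.21 to 9.46) and Col1a2 (10.95 against 7.64 to 9.76) were highest there too. Others differed: Dcn read 11.03 (TPC18645), 9.35 (TPC20223), 8.57 (K459) and 10.99 (TCPA18654), Thy1 was highest in K459 at 8.86 against 6.87 to 7.23, and Lum and Fap were dim, at 4.27 to 4.72 and 4.62 to 4.78. Some of these markers are also mesenchymal genes of the list above. Whether cells of this kind in the culture had a part in the signals of the EMT factors was not tested.

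**Figure D4:**
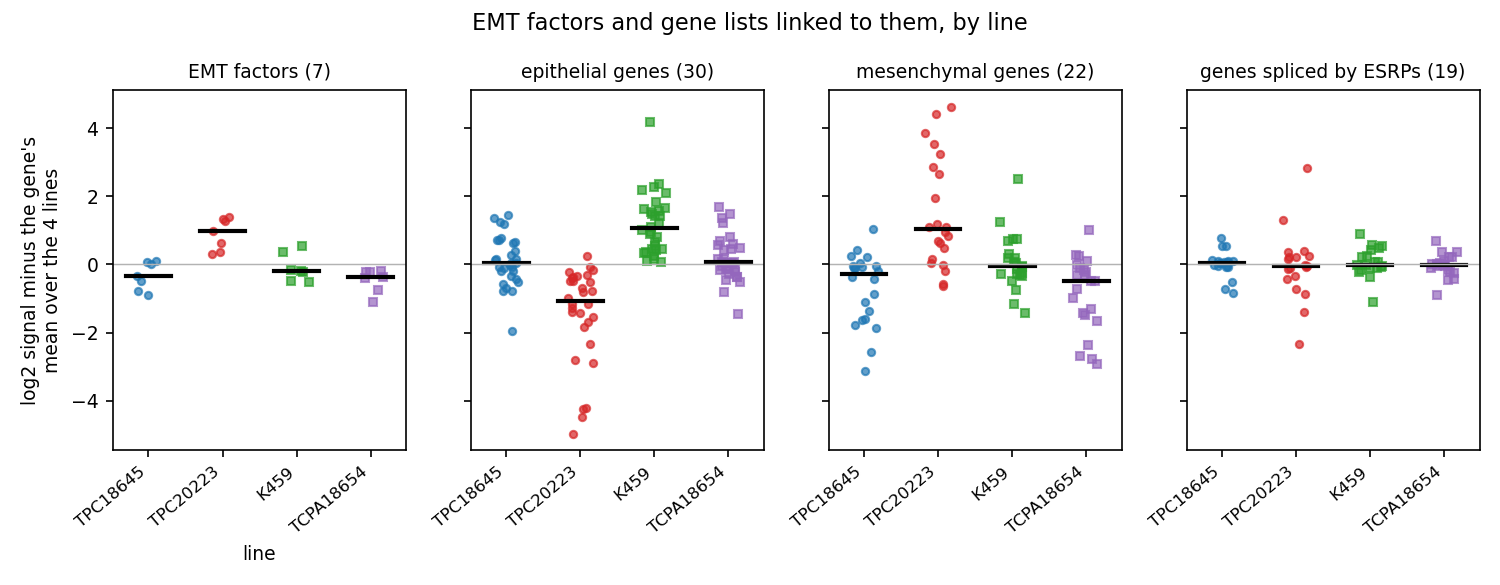
Log2 signal minus the gene's mean over the 4 lines (vertical axis), by line (horizontal axis), for the 7 EMT factors, 30 epithelial genes, 22 mesenchymal genes and 19 genes whose exons the ESRPs set; points are genes and bars medians. The EMT factors and mesenchymal genes have their highest median in TPC20223 and the epithelial genes their lowest.

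Genes with exons known to be set by the ESRPs can change in isoform, which gene-level signals do not resolve. Of 19 measured (0 dim), TPAC was higher for 10 and lower for 9, with a median difference of 0.01 and 0 called, against 8 higher and 11 lower (median -0.08) without TPC20223. In TPC20223, where Esrp2 was lowest, 2 were at least 2-fold above each other line (Fgfr2 and Enah) and 2 at least 2-fold below (Lsr and Ralgps2). These patterns held for 4.25% and 2.95% of all genes. Fgfr2, a receptor whose epithelial and mesenchymal forms bind different ligands, read 7.19 (TPC18645), 10.86 (TPC20223), 6.94 (K459) and 7.15 (TCPA18654). Lsr, a protein of tricellular junctions, read 10.14, 7.01, 10.24 and 10.03 in the same order. Enah, an actin regulator, read 9.37, 11.40, 9.99 and 9.66.

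Among other splicing regulators 25 were measured (3 dim). Between TPC20223 and TCPA18654, 5 of the 25 differed 2-fold, beside 10.9% of all genes, and between K459 and TCPA18654 it was 3, beside 3.87%. It was 4 between TPC18645 and TPC20223, beside 11.3%, and 4 between TPC20223 and K459, beside 10.9%. TPC18645 differed from K459 in 1, beside 4.34%, and from TCPA18654 in 0, beside 0.271%. TPAC was higher for 15 and lower for 10, with a median of 0.05 and 0 called, and without TPC20223 higher for 19 and lower for 6 (median 0.07). Rbm47, an RNA-binding protein of epithelial cells, had the pattern of Esrp2, with 10.15 (TPC18645), 6.76 (TPC20223), 10.07 (K459) and 10.35 (TCPA18654). Khdrbs3 read 7.10, 10.68, 9.23 and 6.81, and Ptbp2, a neural form of the polypyrimidine tract-binding protein, read 9.51, 11.20, 9.61 and 9.69. Mbnl3 spanned less, from 9.15 in K459 to 10.49 in TCPA18654.

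Of the corepressors and the proteins that set the stability of Snail, 23 were measured (0 dim). TPAC was higher for 12 and lower for 11, with a median of 0.01 and 0 called, against 15 and 8 (median 0.06) without TPC20223. Suz12, a subunit of the Polycomb repressive complex, was the only one that differed 2-fold in any pair, and it read 8.79 in TPC20223 against 10.55 to 10.72. Zfp217, Ctbp2 and Bmi1 had the next largest ranges, at 8.04 to 8.93, 9.45 to 10.29 and 8.90 to 9.60. Protein stability, by which Snail is largely set, is not read by these arrays.

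The TGF-β arm, a known inducer of the SNAI and ZEB genes, was measured in 12 of 12 genes (0 dim), of which 7 were higher and 5 lower in TPAC, with a median of 0.10 and 0 called. Without TPC20223, 4 were higher and 8 lower, with a median of -0.09. None was at least 2-fold above or below each other line in TPC20223. Tgfb2, a ligand, was at least 2-fold below each other line in K459 (0.331% of all genes), at 8.96 against 9.97 to 10.20. Ski, a corepressor of SMAD proteins, read 10.56 in TPC20223 against 9.58 to 9.74, and the inhibitor Smad7 read 8.87 there against 9.63 to 9.83. Tgfb3 read 11.73 in TPC20223 against 10.82 to 11.16.

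Last, the genes whose profile over the 4 lines was nearest to that of each varying gene were found among 11949 genes above the 40th percentile, by the root mean square difference of centred log2 signals. Nearest to Snai2 was Mxra7, with a difference of 0.02 and signals of 8.86 (TPC18645), 10.71 (TPC20223), 8.80 (K459) and 8.89 (TCPA18654), followed by Chchd7 (0.03) and Rspo1 (0.04). For Snai1 they were Maneal, Ankrd46 and Chst10, each at 0.04. Twist1 had Ncoa1 (0.06), Klf12 (0.09) and Nuak1 (0.09), and Ncoa1 read 6.78, 8.97, 8.23 and 6.44 in the order above. Prrx1 had Eva1a (0.04), Tox (0.05) and Prickle1 (0.06). Twist2 had Dzip1 (0.02), Zyx (0.04) and Tlr2 (0.04), and Esrp2 had Slc7a7 (0.06), Rbpms (0.07) and Ankrd1 (0.07). With 4 points per profile, such likeness is a description only.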

How the data were processed

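Each of 4 cell lines was measured on 1 array. The log2 values were deposited by the authors after RMA, for which Affymetrix Expression Console 1.4 is named in the submitters' processing notes. A filter, an array batch and the genome build of the clusters are not given in the sources used here. Of 28941 transcript clusters, 21789 had 1 gene symbol in the platform annotation, 1621 had several and 5531 were unnamed here. Where a gene had several clusters, the one of highest mean was taken, giving 19938 genes, of which 19856 matched the RefSeq table of GRCm38.p6 by Entrez number. The 10 genes studied all matched.

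The TPAC lines were set against the TPC lines in R 4.3.3 with the moderated two-sided test of limma 3.58.1 (lmFit, eBayes) and no covariate. P-values were adjusted by Benjamini-Hochberg over all 19938 genes. A call needed an adjusted p no higher than 0.05 and a log2 difference of at least 0.58 in either direction. The limma and t test steps alone were tested on simulated data. The noise of that simulation was taken from TPC18645 and TCPA18654, the closest pair, so it does not cover the wider spread within a genotype. Pairs of lines, with 1 array a side, were described by counts past 2-fold. Promoters and microRNAs were read from RefSeq tables of GRCm38.p6, and motifs were searched on both strands.

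The 10 genes, 9 gene lists and 6 marker lists were chosen with earlier results of these data known. Of each list up to 4 genes with the largest range above the 40th percentile were named, and for each of the 10 genes with a range of 1 or more the 3 nearest profiles; other genes named were chosen after their values were seen. Some genes of these lists are not reported here, and counts are over the genes measured. Tried as alternatives were cyclic loess, equal array medians, averaging the clusters of a gene, a filter at the 40th percentile, an intensity trend, the methods' t test, another call rule, a log2 threshold of 0.58 (about 1.5-fold) for pairs and leaving out each line in turn; list medians without TPC20223 were added after seeing the data.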

Additional observations from a re-analysis of the deposited data

How the results depend on the processing

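Under another array scaling, the mean of a gene's clusters, the filter on dim genes, an intensity trend and the methods' t test, 0 of 58 differences of the 10 genes changed direction. Of these settings only cyclic loess altered the differences at all, so the 0 says little about the others. With 1 line left out, 10 of 40 differences changed direction. Their lowest and highest values were -1.275 and 0.045 for Snai1, -1.865 and 0.015 for Snai2, -1.62 and 0.49 for Twist1, -1.46 and 0.69 for Prrx1, -0.37 and 0.61 for Esrp1, -0.09 and 2.49 for Esrp2, and -0.05 and 0.14 for Grhl2. The lowest and highest median was -1.275 and 0.015 over the 7 EMT factors and -0.05 and 0.61 over the 3 epithelial regulators. Over the latter it was 1.20 with dim genes left out, when Esrp2 alone remained. Of the settings with 1 line left out, the largest shifts came without TPC18645 (to -1.28 over the EMT factors) and without TCPA18654 (to 0.61 over the regulators); the cause was not tested. No gene was called in any of these settings, against 84 at an unadjusted p under 0.05 with the same log2 difference. Leaving out TPC18645 raised that count to 1269 higher and 1586 lower, with a smallest adjusted p of 0.0913. At a log2 difference of 0.58 (about 1.5-fold), 4 of the 10 genes (Twist1, Prrx1, Esrp1 and, at the threshold, Twist2) differed between TPC18645 and K459 in place of 2, and the other pairs stayed within 1.5 times their count. With 1 line left out, the lone array of a genotype is assumed to vary like the lines of the other. Signal over background is not known for Esrp1, Grhl2 and the microRNA precursors, which limits what their small differences show.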
